A study of Mus musculus with 34 samples.

Results

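The response of CD4+ spleen cells of the inbred mouse strain DBA/2J to phorbol 12-myristate 13-acetate (PMA) with ionomycin was described across all genes. It rests on the arrays whose labels name DBA/2J, which were 6 of the 34 arrays of the series, 3 unstimulated (T0) and 3 stimulated (T1). The mice were female and 8 weeks old, and their CD4+ cells were taken from the spleen with magnetic beads. At T1 the cells had received PMA at 10 ng/ml and ionomycin at 1 uM for 4 h. At T0 they had received neither drug. The labels leave unclear if the T0 cells were also cultured, so culture and stimulus cannot be told apart. The DBA/2J replicates, biological ones by their labels, carry the numbers 2, 3 and 4 at both times. The other strains served for comparison, C57BL/6J and A/J with 4 arrays at each time, 129X1/SvJ and Balb/c with 3, from mice of the same sex and age under the same treatment.

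PMA takes the place of diacylglycerol and activates protein kinase C, which feeds the MAP kinase cascade, the AP-1 transcription factors and NF-kappaB. Ionomycin carries calcium into the cell, which activates the phosphatase calcineurin and with it the NFAT transcription factors. The pair bypasses the T cell receptor, and in helper T cells it is commonly used to bring out cytokine genes within hours.

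Expression was measured on Affymetrix arrays as log2 intensity, so a difference of 1 is a doubling on the intensity scale, and 11413 genes were compared after 8525 with low values had been left out. The limit for keeping a gene was 5.327, the median of all values, reached by the mean of at least 1 of the 10 groups. A group mean under this limit is not shown to lie above background. Among the genes kept, 1170 had a DBA/2J T0 mean under it, and no fold change is given for a gene with either mean there. The log2 difference of such a gene is that of the deposited values, so its size and its rank are not measured beyond the limit. A gene kept through its T1 mean alone had to be higher at T1, so counts over kept genes are descriptions. The labelled cell type was checked with 15 genes typical of CD4 T cells, of which 13 were kept, and none of these had a DBA/2J mean under the limit at either time. This shows CD4 T cell RNA but does not set other cells aside, since none of the 18 B cell or 8 erythroid markers kept was under the limit at T0 either. Cd4 itself read 9.78, 9.45 and 9.51 on the T0 arrays. Within DBA/2J, arrays of the same time correlated at 0.983 to 0.991 over the genes kept, and arrays of different times at 0.819 to 0.849. Outside DBA/2J, Balb/c T1 replicate 2 stood apart, with a correlation of 0.945 to 0.951 with the other arrays of its group.

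After stimulation 6848 of 11413 genes had changed in DBA/2J (60.0%; limma, Benjamini-Hochberg adjusted p under 0.05). Of these, 2715 (23.8%) were higher at T1 and 4133 (36.2%) lower. A change of at least 1 log2 was reached by 818 of the higher genes (7.17% of all) and by 1395 of the lower genes (12.2%). The median change over all genes was -0.067. The T1 arrays all lay above the T0 arrays for 3322 genes (29.1%) and all below them for 4576 (40.1%). In total, 6793 of the called genes had the same sign in each of the 3 differences between arrays of the same number. P-values here set each change against the spread between samples of the same group. That spread was pooled over the groups of all strains, so it does not come from the DBA/2J arrays alone.

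Passing over unnamed transcripts, the largest increases of the deposited values in DBA/2J were mostly in genes of secreted messengers of T cells. Il2, which encodes the growth factor interleukin 2, stood first in this order with a log2 difference of 6.74 (SE 0.22, adjusted p = 1.96e-20). Its T0 values were 4.15, 3.49 and 3.82 for replicates 2, 3 and 4, and its T1 values 10.68, 10.41 and 10.6. Ifng, which encodes the macrophage-activating cytokine interferon gamma, went from 5.41, 5.2 and 5.19 at T0 to 11.64, 11.44 and 11.37 at T1, a rise of 6.22 (SE 0.21, adjusted p = 3.47e-20). Il3, a growth factor for blood progenitors and mast cells, went from 3.05, 3.2 and 3.69 to 9.37, 9.03 and 8.7, a rise of 5.72 (SE 0.24, adjusted p = 4.54e-18). For these genes every T1 array lay far above every T0 array. All 3 T0 means were under the limit, so the size of the rise and the order of these genes are not measured. The promoters of these genes are shown because the genes stood first in the order of deposited values, and shared regulation was not tested. They are RefSeq sequences of build GRCm38.p6, from 250 bases before to 50 after the start, with capitals marking matches to the motifs searched.
Il2 promoter, chr3:37125905-37126204, minus strand: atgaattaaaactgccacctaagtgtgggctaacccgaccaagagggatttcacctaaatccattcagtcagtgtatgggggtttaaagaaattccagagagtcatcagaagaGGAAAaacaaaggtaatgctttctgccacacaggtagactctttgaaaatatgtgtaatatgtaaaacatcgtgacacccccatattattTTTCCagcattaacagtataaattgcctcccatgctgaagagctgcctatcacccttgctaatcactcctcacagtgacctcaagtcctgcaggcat
Ifng promoter, chr10:118440796-118441095, plus strand: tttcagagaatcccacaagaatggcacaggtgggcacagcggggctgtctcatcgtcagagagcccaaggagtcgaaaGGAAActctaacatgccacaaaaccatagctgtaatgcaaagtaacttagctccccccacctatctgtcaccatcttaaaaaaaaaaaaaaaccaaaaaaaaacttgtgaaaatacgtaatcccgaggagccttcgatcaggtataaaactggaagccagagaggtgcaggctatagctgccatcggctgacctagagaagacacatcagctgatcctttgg
Il3 promoter, chr11:54267230-54267529, minus strand: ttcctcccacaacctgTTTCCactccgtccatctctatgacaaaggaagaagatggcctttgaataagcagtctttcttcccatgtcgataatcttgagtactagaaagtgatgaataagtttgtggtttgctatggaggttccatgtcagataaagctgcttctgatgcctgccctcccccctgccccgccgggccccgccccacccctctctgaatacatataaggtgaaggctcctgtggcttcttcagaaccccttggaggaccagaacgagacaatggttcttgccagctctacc

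Il2 held the NFAT core GGAAA 2 times in this window on either strand, Ifng 1 time and Il3 1 time. This short core was found in 58.7% of the 9130 promoters of kept genes that had a sequence, in 62.4% of the 630 promoters of large rises and in 60.0% of the 1148 of large falls. None of the 3 windows held the AP-1 motif TGANTCA, the CRE motif TGACGTCA or the NF-kappaB-like motif (GGGA and CC with 4 bases of any kind between). Over all promoters, TGANTCA occurred in 4.9%, with 6.98% among the large rises and 3.92% among the large falls. The shares for the NF-kappaB-like motif were 26.7% over all promoters, 28.6% among large rises and 26.8% among large falls. TGACGTCA occurred in 3.31% of all promoters, in 3.17% of those of large rises and in 1.57% of those of large falls. These shares were counted on both strands and not tested, and a match to GGAAA can lie inside one to the NF-kappaB-like motif.

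Next in the order of deposited values came Gzmb, which encodes the protease granzyme B, with T0 values of 4.72, 4.38 and 4.85, T1 values of 9.87, 10.23 and 9.91 and a rise of 5.35 (SE 0.31). Il10, an anti-inflammatory cytokine, rose by 5.13 (SE 0.25). Csf2, the gene of the granulocyte and macrophage growth factor GM-CSF, read 4.2, 4.5 and 4.96 at T0 and 9.54, 9.5 and 9.8 at T1, a rise of 5.06 (SE 0.27). In each of these the groups were separate by several log2 units. Il17f, a cytokine of the Th17 lineage, rose by 5.02 (SE 0.25). Ccl4, a chemokine that attracts T cells and monocytes, was already above the limit at T0 with 6.76, 7.56 and 6.92, and reached 12.11, 12.07 and 11.98, which is 31.4-fold. Il4, the signature cytokine of Th2 cells, rose 29.8-fold, from 7.21, 7.0 and 6.46 to 11.94, 11.61 and 11.82. The rest of the 15 largest rises were Xcl1 (4.78), Lif (4.71), Fosb (4.66), Il21 (4.65), Spry1 (4.61) and Il13 (4.33). In all 15, the T0 and T1 arrays did not overlap and the adjusted p was at most 2.14e-12. The 15 were chosen by size among called genes that rose in every difference between arrays of the same number. Their separation and small adjusted p follow in part from this choice and are descriptions. The T0 mean was under the limit for 11 of the 15, whose order is therefore not measured, and above it for Ccl4, Il4, Fosb and Spry1.

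The largest fall was that of Cd79b, which encodes a chain of the B cell receptor. It read 10.5, 11.12 and 10.5 at T0 and 5.89, 5.81 and 5.67 at T1, a fall of 30.3-fold (log2 change -4.92, SE 0.28, adjusted p = 2.35e-15). Cd79b is a B cell marker, and B cell markers as a group fell in these arrays, as given below. Cd55, which encodes a cell surface inhibitor of complement, read 8.59, 8.79 and 9.0 at T0 and 4.05, 4.56 and 4.28 at T1 (change -4.50, SE 0.25). Rflnb, which encodes refilin B, a partner of the actin cross-linker filamin, fell 21.1-fold, from 10.56, 10.0 and 10.24 to 5.62, 5.74 and 6.23. S1pr1, the receptor that lets lymphocytes leave lymphoid organs along sphingosine 1-phosphate, fell 17.5-fold. Its T0 values of 10.95, 11.01 and 10.95 were close to each other, and its T1 values were 6.64, 6.96 and 6.93. In all of these the T0 arrays stood several log2 units above the T1 arrays. The promoters of Cd55 and Rflnb are set out against those of the rises, from the same source and with the same marking.
Cd55 promoter, chr1:130462695-130462994, minus strand: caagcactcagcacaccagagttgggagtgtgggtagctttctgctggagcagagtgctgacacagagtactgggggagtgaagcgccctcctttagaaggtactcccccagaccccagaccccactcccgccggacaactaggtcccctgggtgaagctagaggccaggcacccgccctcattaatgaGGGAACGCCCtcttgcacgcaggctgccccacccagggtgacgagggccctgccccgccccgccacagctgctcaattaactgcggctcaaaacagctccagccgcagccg
Rflnb promoter, chr11:76027733-76028032, minus strand: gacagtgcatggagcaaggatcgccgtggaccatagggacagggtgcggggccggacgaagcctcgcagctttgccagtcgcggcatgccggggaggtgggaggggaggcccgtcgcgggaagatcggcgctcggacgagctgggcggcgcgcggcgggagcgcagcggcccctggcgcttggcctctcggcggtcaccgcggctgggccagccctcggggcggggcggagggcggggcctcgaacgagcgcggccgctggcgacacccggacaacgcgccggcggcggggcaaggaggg

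The Cd55 window held 1 match to the NF-kappaB-like motif and none of the other motifs, and the Rflnb window held none of the 4. Among the remaining largest falls were Il7r, the receptor for the T cell survival factor interleukin 7, and a pair of sialyltransferases. Il7r fell 10.4-fold, from 11.98, 11.68 and 11.94 to 8.44, 8.57 and 8.46. St8sia1, which adds sialic acid in the making of gangliosides, fell 10.8-fold, and St8sia6 fell 9.88-fold. The others were Tmem71 (-3.94), Cep97 (-3.68), Cnp (-3.50), Card6 (-3.38), Pcmtd2 (-3.17), Traf3ip3 (-3.17), Fam78a (-3.14) and Cnr2 (-3.14). All 15 largest falls had separate T0 and T1 arrays and an adjusted p of at most 2.5e-11, and 4, Cd55, Cep97, Card6 and Cnr2, had a T1 mean under the limit, so that the depth of their falls is not measured. The falls were chosen in the same way as the rises, so their separation and small adjusted p are descriptions too.

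**Figure D1:**
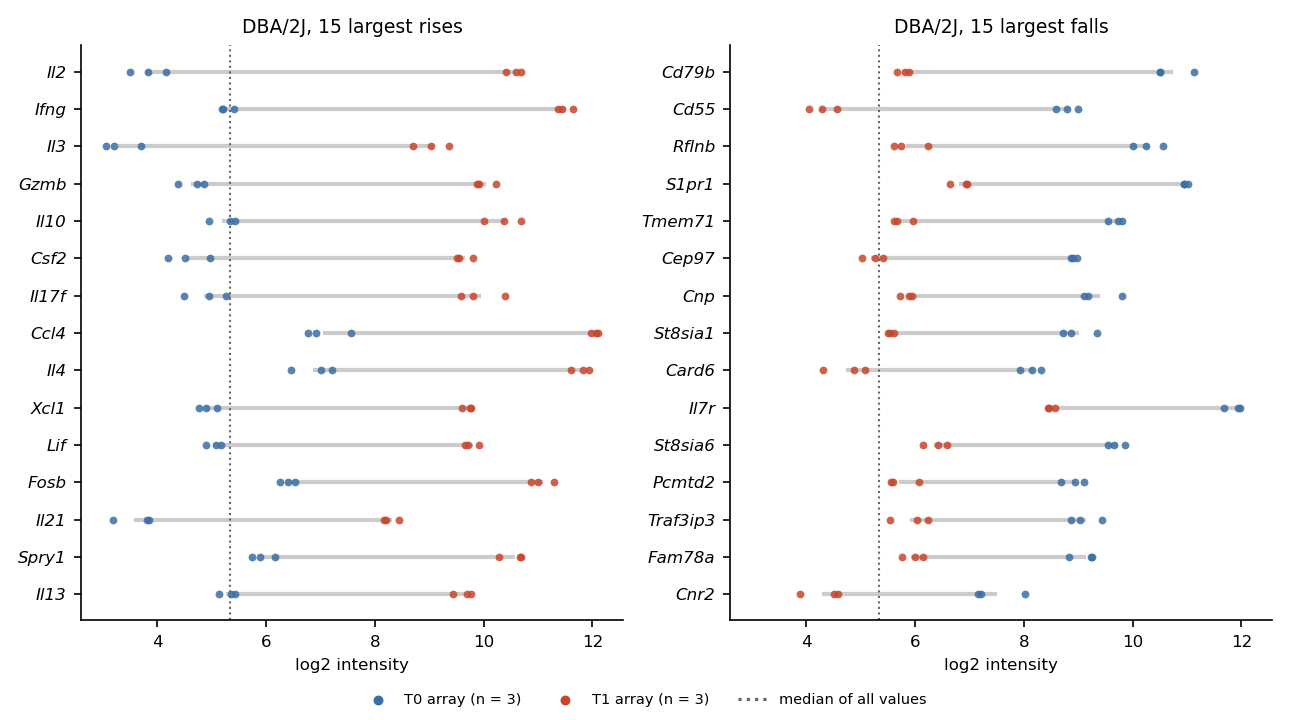
Log2 intensity on the 3 T0 (blue) and 3 T1 (red) arrays of DBA/2J for the 15 largest rises (left) and the 15 largest falls (right), with a grey bar joining the group means and a dotted line at the median of all values. The groups are separate in every row, which follows in part from the choice of the genes by these values. Many of the rising genes start left of the dotted line, such as Il2 with a T0 mean of 3.82 and a T1 mean of 10.56.

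Among 30 cytokine genes listed, 26 were kept, of which 22 rose and 1 fell, with a median change of 2.72 against -0.067 over all genes. Over all genes 23.8% rose and 36.2% fell, the shares to set beside the counts in this and the other lists. At T0, 16 of the 26 had means under the limit. Beyond those already named, Il17a, the defining cytokine of Th17 cells, rose by 3.95, and Cd40lg, the helper molecule that T cells show to B cells, by 3.64. Tnf, which encodes tumour necrosis factor, went from 7.0, 7.57 and 7.45 to 10.04, 10.25 and 10.19, a 7.06-fold rise. The T1 arrays of Tnf all lay above its T0 arrays. Ltb, which encodes lymphotoxin beta, a factor in the building of lymphoid tissue, was the 1 cytokine gene that fell (-2.26). Of 14 chemokine genes kept from 16 listed, 12 rose and none fell, with a median of 1.58. Ccl3, a close relative of Ccl4, rose 11.2-fold, and Ccl1, a ligand of CCR8, rose by 4.00 from a T0 mean under the limit. Xcl1, which attracts dendritic cells bearing XCR1, went from 5.09, 4.9 and 4.77 to 9.74, 9.6 and 9.77.

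Transcription factors that respond at once to activation rose almost as a body: 25 of 26 genes of the AP-1 and immediate early list were higher at T1 and none lower, with a median of 2.01. Fos, a subunit of AP-1, went from 5.44, 5.89 and 5.57 to 9.66, 9.92 and 10.12, a 19.2-fold rise. Its groups were 3 log2 units or more apart. Fosb rose 25.3-fold, Egr2, a zinc finger factor downstream of calcium signals, 14.3-fold, and Egr1 6.63-fold. Myc, which drives growth, rose 11.2-fold from 8.98, 9.05 and 9.02 to 12.57, 12.4 and 12.52. The orphan nuclear receptors Nr4a1, Nr4a2 and Nr4a3, known as reporters of T cell activation, rose 8.98-fold, 16.7-fold and 10.9-fold. Jund was the single member not called, at -0.15.

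In the NF-kappaB pathway 10 of 18 kept genes rose and 5 fell (median 0.39), beside 23.8% and 36.2% over all genes. Among the rises, Nfkbid rose 11.7-fold, Nfkbiz 4.65-fold, Nfkbia 4.0-fold and the deubiquitinase gene Tnfaip3 3.98-fold. The kinase genes Ikbke (-1.78) and Ikbkb (-1.0) fell, as did Tnip1 (-1.51), Bcl3 (-0.70) and Birc3 (-0.46). In the NFAT and calcium list 4 of 17 genes rose and 9 fell (median -0.56), and the number of rises is near the 23.8% over all genes. Orai1, the pore of the store-operated calcium channel, rose 2.41-fold, and Rcan1, a calcineurin inhibitor, changed by 1.15. Nfatc1 (0.60) and Stim2 (0.54) rose as well. The calcium sensor gene Stim1 fell 2.26-fold, Nfatc3 changed by -1.53 and Orai2 by -1.40, and the calcineurin subunit genes Ppp3ca (-1.11), Ppp3cb (-0.79) and Ppp3r1 (-0.60) were lower.

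Genes that restrain signalling mostly rose, with 17 of 25 higher, 5 lower and a median of 1.13. Spry1, which blocks the Ras to MAP kinase route, went from 6.17, 5.74 and 5.89 to 10.66, 10.28 and 10.68, a 24.3-fold rise. Rgs16, a brake on G protein signalling, rose 10.6-fold, the phosphatase gene Dusp4 8.23-fold and Cish, which damps cytokine receptors, 7.41-fold. The T1 arrays of Cish, 9.67, 9.4 and 9.59, all lay above its T0 arrays of 6.67, 6.77 and 6.56. The genes that fell were Dgka (-1.76), whose product consumes diacylglycerol, the ubiquitin ligases Itch (-1.16), Cbl (-0.83) and Cblb (-0.35), and the phosphatase Dusp10 (-0.80). The adjusted p for Cblb was 0.0471, and its call was lost on leaving out any of the 6 DBA/2J arrays and also with many arrays of other strains left out.

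Of 28 activation receptor genes kept, 20 rose and 2 fell, with a median of 1.38. Cd69, the early activation marker, rose 9.22-fold, from 8.83, 9.67 and 9.54 to 12.54, 12.43 and 12.68. Il2ra, the high-affinity chain of the interleukin 2 receptor, rose 12.1-fold, from 7.24, 7.54 and 7.31 to 11.0, 10.95 and 10.95. Slamf1 rose 13.1-fold, Cd200 7.88-fold and Cd274, which encodes the inhibitory ligand PD-L1, 6.0-fold. In all 5 of these the T1 arrays lay above the T0 arrays. Both chains of the interleukin 18 receptor fell, Il18r1 by 5.07-fold and Il18rap with a change of -0.81. Among homing and egress receptors 4 of 18 rose and 11 fell (median -1.03), beside 23.8% and 36.2% over all genes. The number of rises is near the share over all genes. S1pr4 (-3.05), the gut-homing receptor Ccr9 (-2.94) and the integrin chain Itga4 (-2.64) fell beside S1pr1. Those that rose were Ccr8 (11.5-fold), Gpr183 (3.2-fold), Ccr4 (2.26-fold) and Itgae (0.70).

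Genes linked to the resting, naive state fell in 13 of 21 cases and rose in 2, with a median of -1.14, against -0.60 for the mean response of the other strains in the same genes. The median of the differences gene by gene was -0.23, and 2 of the 21, Klf3 and Il7r, were called below the others, against 1.51% of all genes. Klf3 fell 7.46-fold, Ets1 changed by -2.0, Lef1 by -1.89 and the cell cycle inhibitor Cdkn1b by -1.62. Klf4 (0.76) and Tob2 (0.84) rose. Genes of T cell receptor signalling fell in 15 of 24 cases and rose in 5 (median -0.81), beside 36.2% and 23.8% over all genes. The adaptor gene Grap2 fell 5.09-fold, and the receptor chain Cd3g changed by -1.98 and Cd3e by -1.14. Cd4, the co-receptor, fell 2.96-fold to 7.91, 7.99 and 8.15, below every T0 array. Zap70 (1.09), Ptpn22 (1.18), Ubash3b (1.23), Fyn (0.47) and Lcp2 (0.26) rose, of which Lcp2 lost its call without T0 replicate 4, T1 replicate 2 or T1 replicate 4.

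Lineage factors went both ways, with 14 of 24 higher and 7 lower, beside 23.8% and 36.2% over all genes. Tbx21, which encodes the Th1 factor T-bet, rose 11.9-fold, Zbtb32 9.08-fold, Irf4 8.44-fold and the aryl hydrocarbon receptor gene Ahr 5.63-fold. Gata3, the Th2 factor, rose 1.56-fold. Bcl6, the factor of follicular helper cells, fell (-1.66), as did Zbtb7b (-1.07), Eomes (-1.01), Ikzf2 (-0.62), Stat6 (-0.53), Id3 (-0.53) and Runx3 (-0.43). The call for Id3 was lost without T1 replicate 2. Foxp3, the factor of regulatory T cells, had a change of -0.12 and was not called. From the regulatory T cell list 17 genes were kept, 6 higher and 5 lower at T1, beside 23.8% and 36.2% over all genes. Those that rose, Il10, Il2ra, Ctla4 (3.21-fold), Tnfrsf4 (2.82-fold), Capg (1.13) and Itgae, include genes of activated T cells at large.

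Genes of biosynthesis rose broadly. In ribosome biogenesis 27 of 28 kept genes rose and none fell, with a median of 1.76. Rrp1b rose 6.24-fold, Gnl3 5.68-fold and Nolc1 4.03-fold, while Wdr12 had a change of -0.01 and was not called. In amino acid and one-carbon metabolism 21 of 23 rose and none fell (median 1.24), led in size by Shmt1 (2.78), Psat1 (6.04-fold) and the arginine and lysine transporter gene Slc7a1 (5.5-fold). In nucleotide and polyamine synthesis 12 of 17 rose (median 0.99), among them Ctps (6.15-fold) and the spermidine synthase gene Srm (5.52-fold), and Rrm1 fell (-0.62). The call for Rrm1 was lost without T0 replicate 3, T0 replicate 4 or T1 replicate 4. Of 16 chaperone genes 14 rose and none fell (median 0.99), with Hspd1, the mitochondrial chaperonin, at 2.99-fold. Cholesterol synthesis and uptake had 12 of 18 higher, such as Idi1 (5.36-fold) and Cyp51 (4.48-fold), and the lower members were the sterol exporters Abca1 (7.88-fold) and Abcg1 (-1.57). Glycolysis showed 7 of 16 higher and 2 lower (median 0.23), beside 23.8% and 36.2% over all genes. Hk2 rose 7.23-fold, and Pgk1 (0.09) and Tpi1 were not called.

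Cell division genes were mostly not called, with 3 of 24 higher and 5 lower, beside 23.8% and 36.2% over all genes, and a median of -0.17. Those higher were the entry factors Ccnd2 (4.64-fold), Cdk6 (3.99-fold) and Cdk4 (0.85), and those lower included Ccnd3 (-1.85) and Mcm6 (-1.39). Mki67, a marker of cycling cells, had a change of 0.14. Among survival and death genes 9 of 20 rose, against 23.8% of all genes, and 5 fell, against 36.2%. Gadd45b rose 10.2-fold and Sesn2 3.03-fold, while Sesn3 changed by -1.88 and Sesn1 by -1.76. In the cytotoxic granule list 6 of 10 rose and 2 fell, against 23.8% and 36.2% of all genes. Serpinb6b, an inhibitor of granzyme, rose 8.45-fold, and Ctsw fell (-1.95). Gzmk was called lower with both means under the limit. Of the SLAM family 3 of 10 rose, Slamf1, Slamf7 (10.3-fold) and Cd244a (0.66), and 3 fell, Slamf6 (-2.39), Sh2d1a (-2.28) and Slamf9 (-0.66), counts near the 23.8% and 36.2% over all genes. Among regulators of mRNA decay 4 of 13 rose, led by Zc3h12c (5.44-fold), and 6 fell, led by Rc3h2 (-1.10), beside the same shares over all genes.

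**Figure D2:**
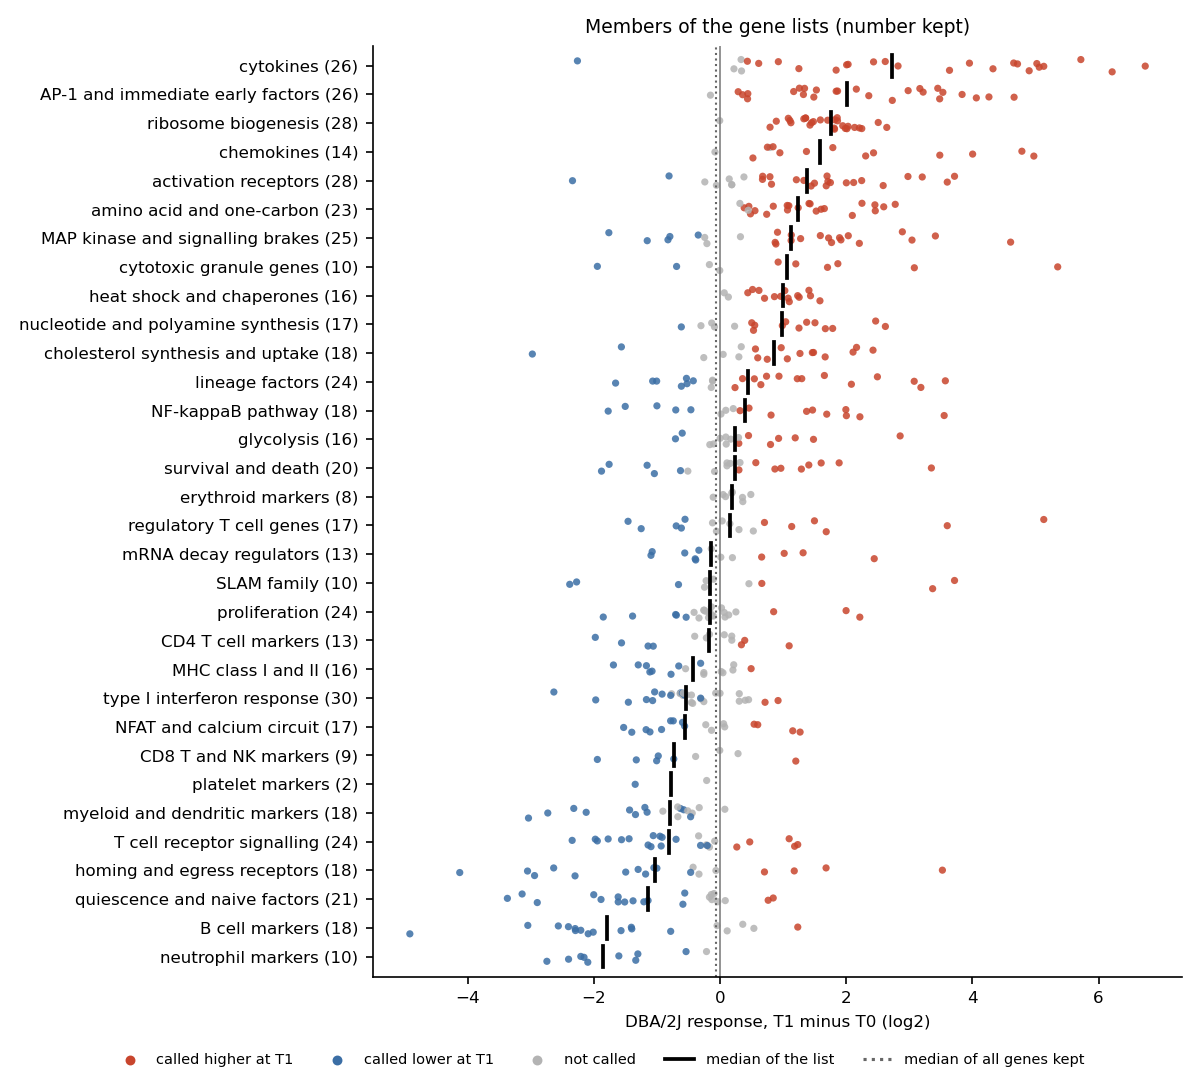
Response of DBA/2J (T1 minus T0, log2) for each kept member of 25 pathway lists and 7 marker lists, one point per gene and one row per list, ordered by the list's median (black bar), with red for genes called higher at T1, blue for genes called lower and grey for genes not called. Cytokines have the highest median (2.72) and neutrophil markers the lowest (-1.85), and the dotted line marks the median over all genes kept (-0.067).

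Genes of the type I interferon response were higher in 2 of 30 cases (Oasl1, 0.71, and Ifih1, 0.92) and lower in 12, and 16 were not called (median -0.55). The number lower is near the 36.2% over all genes. Samhd1, which depletes nucleotides, fell 6.22-fold and Ddx58, which encodes the RNA sensor RIG-I, changed by -1.97. The call for Oasl1 was lost without T0 replicate 2. Genes of the MHC fell in 8 of 16 cases, against 36.2% of all genes, among them Ciita (-1.69) and H2-Ob (-1.30). In the same list H2-Eb1 rose (0.49), a call lost without T0 replicate 2, T0 replicate 4, T1 replicate 2 or T1 replicate 3.

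Markers of other spleen cells moved in the same arrays. Of 18 B cell markers kept from 19 listed, 13 fell and 1 rose (Cr2, 1.23), with a median of -1.79. Their mean level ran from 8.09 to 8.68 on the T0 arrays and from 6.69 to 6.97 on the T1 arrays, so the groups did not overlap. The group means of the other strains for these markers ran from 7.23 to 8.34 at T0 and from 6.47 to 6.9 at T1. At T1 Cd22, Fcrla, Btk and Vpreb3 had means under the limit. Of 10 neutrophil markers 9 fell and none rose (median -1.85), and their mean level went from between 6.16 and 7.09 to between 4.81 and 5.24, with 7 of the 10 under the limit at T1. Of 18 myeloid and dendritic markers 11 fell and none rose, and the mean level went from between 7.23 and 7.69 to between 6.18 and 6.51. CD8 T and NK markers fell in 5 of 9 cases and rose in 1 (Prf1, 1.20), beside 36.2% and 23.8% over all genes. The 8 erythroid markers kept were not called in either direction, at 7.46 to 8.02 at T0 and 7.71 to 8.57 at T1, and of 2 platelet markers 1 fell. In such mixed samples fewer cells of a type and less RNA per cell cannot be told apart. The part of these cells in the falls of MHC genes or of single genes such as Cd79b was not tested.

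MicroRNA genes were looked at after their values had been seen. The array reads the primary transcript or hairpin region, not the mature microRNA. Of 101 kept, 33 were higher at T1 and 7 lower, and 10 rises and 6 falls reached 1 log2. Over all genes 23.8% were higher and 36.2% lower, and 7.17% and 12.2% changed by 1 log2 or more, so the large rises are near the share over all genes. Mir155, the gene of a microRNA needed for effector T cell responses, went from 6.61, 7.03 and 7.13 to 11.01, 11.31 and 11.18, a 19.0-fold rise (adjusted p = 5.28e-21). Members of the miR-17 cluster on chromosome 14, which supports lymphocyte growth, rose together: Mir19a by 3.19, Mir19b-1 by 3.14, Mir20a by 3.08, Mir17 by 3.01 and Mir18 by 2.92. Their host transcript Mir17hg, measured by its own probe set, rose by 2.47, from 6.24, 6.33 and 6.29 to 8.84, 8.88 and 8.54. Neighbouring genes of 1 transcript are not independent measurements. Mir15b (-1.65) and Mir16-2 (-1.29), neighbours on chromosome 3, fell, as did Mir181b-1 (-2.02), Mir342 (-1.58), Mir142 (-1.11) and Mir687 (-2.22). The mature sequences of the microRNAs that share a seed are shown with that of miR-155, from RefSeq build GRCm38.p6, with the seed (bases 2 to 8) in capitals.
miR-155-5p: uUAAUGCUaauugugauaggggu
miR-17-5p: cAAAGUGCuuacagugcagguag
miR-20a-5p: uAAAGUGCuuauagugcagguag
miR-19a-3p: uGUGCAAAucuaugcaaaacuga
miR-19b-3p: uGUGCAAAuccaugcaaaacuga
miR-15b-5p: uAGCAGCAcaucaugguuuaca
miR-16-5p: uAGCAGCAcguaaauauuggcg

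Among the genes that rose, Mir17 and Mir20a encode miR-17-5p and miR-20a-5p with the shared seed AAAGUGC, and Mir19a and Mir19b-1 encode miR-19a-3p and miR-19b-3p with the shared seed GUGCAAA. Among those that fell, Mir15b and Mir16-2 encode miR-15b-5p and miR-16-5p with the shared seed AGCAGCA. The mature forms themselves were not measured. The other large rises were Mir3068 (1.98), Mir677 (1.69), Mir221 (1.53) and Mir193a (1.05).

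The response of DBA/2J was then compared with the mean response of the other 4 strains, which asks where the change from T0 to T1 differed in this strain. The arrays also held RNA of other spleen cells, and their part in the differences between strains was not tested. Across genes the responses correlated at 0.958, with a slope of 1.11 of DBA/2J on the mean of the others, and genes are not independent replicates. On single strains the slope was 1.00 for 129X1/SvJ, 1.03 for C57BL/6J, 1.05 for Balb/c and 1.13 for A/J. The median absolute response was 0.43 in DBA/2J, 0.40 in 129X1/SvJ and C57BL/6J, 0.38 in Balb/c and 0.35 in A/J. By size alone, 819 genes were at least 1 log2 higher at T1 and 1398 lower in DBA/2J, against 823 and 1259 in 129X1/SvJ, 660 and 1187 in C57BL/6J, 714 and 1019 in Balb/c and 644 and 860 in A/J. The mean response of the others was itself called for 8995 genes (78.8%), over more arrays than the DBA/2J response. The interaction test called 272 of 11413 genes (2.38%), with the DBA/2J response above the others in 100 (0.876%) and below in 172 (1.51%). Of the 272, the response was larger than the mean of the others with the same sign for 213, smaller with the same sign for 20 and of the opposite sign for 39. No group mean was under the limit for 217 of them, 77 above and 140 below the others, and for the other 55 the size of the difference is not measured. For 248 of the 272 all 4 other strains lay on the same side of DBA/2J. Choosing the genes by their distance from the mean of these strains favours this, so it is a description. The count of 272 rested on single arrays. It was 168 without T0 replicate 2 of DBA/2J, 162 without T0 replicate 4, 147 without T1 replicate 2, 176 without T1 replicate 3 and 172 without T1 replicate 4. Without Balb/c T1 replicate 2, the array that stood apart, it was 596, and all 272 genes were among these.

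**Figure D3:**
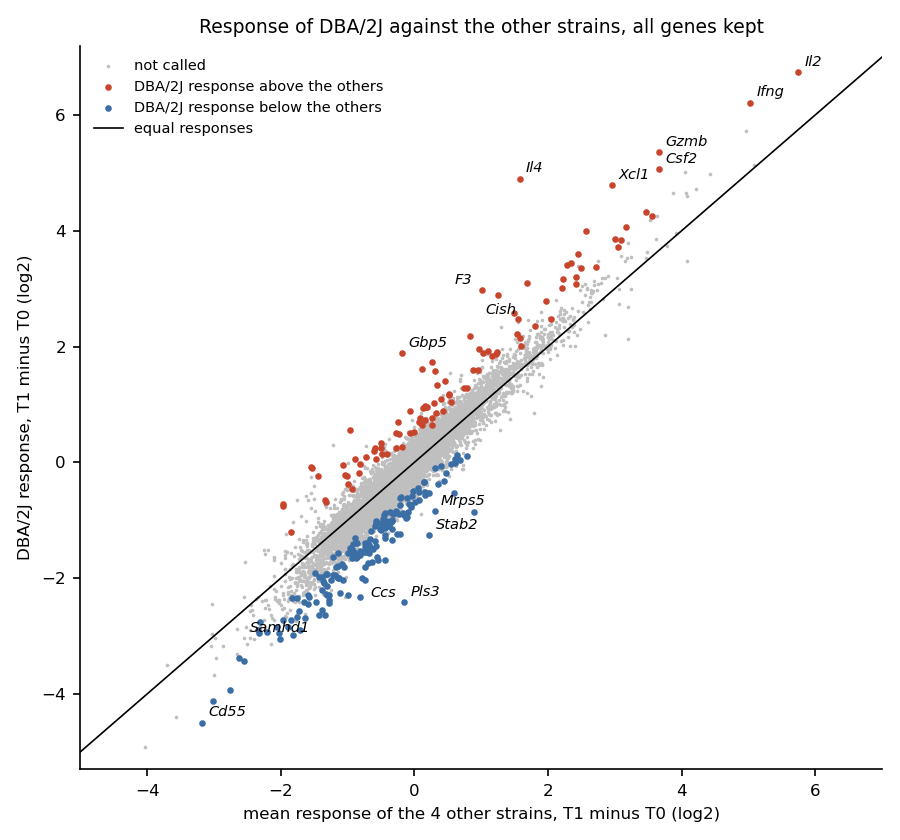
Response of DBA/2J (vertical axis, T1 minus T0, log2) against the mean response of the 4 other strains (horizontal axis, log2) for the 11413 genes kept, with genes called in the difference in red (above the others, 100) and blue (below, 172) and a line of equal responses. Il4 (difference 3.32) lies farthest above the line in deposited values, and Pls3 (-2.26), with T1 and the other strains under the limit, farthest below.

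Il4 had the largest positive difference, 3.32 (SE 0.31, adjusted p = 4.43e-08). At T0 its mean was 6.89 ± 0.38 (SD, n = 3) in DBA/2J and 6.85 in 129X1/SvJ, against 9.72 in C57BL/6J, 10.29 in Balb/c and 10.61 in A/J. At T1 all strains lay between 10.65 and 11.79, with DBA/2J the highest. The T0 level was thus low in 129X1/SvJ as well, and the responses of these strains, 4.90 and 3.80, were not called different (adjusted p = 0.438, difference tested against 129X1/SvJ alone). Xcl1 was also low at T0 in DBA/2J (4.92 ± 0.16, SD, n = 3) and in 129X1/SvJ (4.85), both under the limit. The T0 means of the other strains were 6.68 to 7.01. The responses differed by 1.83 in deposited values (adjusted p = 8.92e-06), a size that is not measured. Cish differed by 1.64 (adjusted p = 5.46e-08), from a T0 mean of 6.66 in DBA/2J and 6.82 in 129X1/SvJ against 8.38 to 9.07 in the others. Gzmb differed by 1.69 (adjusted p = 0.00404) with a gap to the others of -0.52 at T0, where the DBA/2J mean was under the limit, and of 1.17 at T1.

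F3, which encodes tissue factor, the trigger of blood clotting, differed by 1.96 (SE 0.20, adjusted p = 1.87e-07). All strains were between 3.89 and 3.98 at T0, under the limit. At T1 DBA/2J read 7.19, 6.61 and 6.83, and the means of the other strains, 4.81 to 5.22, remained under the limit. DBA/2J was thus the strain with a T1 mean of F3 above the limit, and the difference from 129X1/SvJ alone was called as well (adjusted p = 2.18e-05). Csf2 differed by 1.40 (adjusted p = 0.00583), with all T0 means under the limit and T1 means of 9.62 ± 0.16 in DBA/2J (SD, n = 3) and 8.13 to 8.36 in the others. Ccl1 differed by 1.43, a call lost without T1 replicate 2 (adjusted p = 0.0621).

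Genes of the guanylate binding protein family, interferon-induced GTPases that act against intracellular microbes, were prominent among the positive differences. Of 8 Gbp genes kept, chosen as a family after values had been seen, 5 were called above the others in their response and none below. Over all genes 0.876% were called above and 1.51% below. Gbp5 read 7.13, 7.68 and 7.03 at T0 and 9.12, 9.25 and 9.13 at T1, a 3.71-fold rise, whereas the mean response of the others was -0.19 (difference 2.08, adjusted p = 5.46e-08). The response of Gbp5 was 1.29 in 129X1/SvJ, and elsewhere it ranged from -1.36 in C57BL/6J over -0.75 in Balb/c to 0.06 in A/J. Gbp4 rose 3.04-fold (difference 1.49) and Gbp9 3.32-fold (difference 1.47), with T0 and T1 arrays of DBA/2J separate in both. Gbp11 had a response of 0.56 that was not called, and a difference of 1.53 that was lost without T0 replicate 4 or T1 replicate 4 (adjusted p up to 0.0794). Gbp3 differed by 0.72, a call lost without any of the DBA/2J arrays and some others (adjusted p up to 0.149). Gbp7, Gbp8 and Gbp2b differed by 0.87, 0.32 and 1.30, which were not called. These genes are close in sequence, and whether their probes read more than 1 of them was not tested. The type I interferon list as a whole had no member called above the others and 1 below, with a median difference of 0.32 against 0.0099 over all genes.

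Pde5a, a phosphodiesterase of cyclic GMP, and Iigp1, another interferon-induced GTPase, were called above the others with no called change in DBA/2J. Pde5a read 4.19, 4.33 and 4.09 at T0 and 4.03, 4.27 and 4.04 at T1 in DBA/2J, always under the limit, while its mean changed by -2.36 in 129X1/SvJ, -2.18 in Balb/c and -1.54 in A/J. In C57BL/6J it was under the limit already at T0, at 4.25. Its groups overlapped in DBA/2J, and with both means under the limit there a fall in DBA/2J could not have been measured. Iigp1 had a change of -0.10 in DBA/2J and -0.20 in 129X1/SvJ, against -1.42 to -2.73 in the other strains.

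Pls3, which encodes an actin-bundling plastin, was called below the others (deposited values differing by -2.26, SE 0.29, adjusted p = 8.92e-06). It read 6.57, 6.0 and 6.75 at T0 and 3.56, 4.14 and 4.37 at T1 in DBA/2J, and every other strain mean was between 3.31 and 4.41 at both times, under the limit, as was the T1 mean of DBA/2J. DBA/2J was thus the strain with a T0 mean above the limit, and the size of the difference in response is not measured. Stab2, a scavenger receptor of liver and spleen sinus endothelium, stood 3.37 above the mean of the others at T0 and 1.89 at T1. It read 8.47, 8.3 and 8.57 and then 7.15, 7.0 and 7.41 in DBA/2J, a 2.4-fold fall, against strain means of 4.95 to 5.38 elsewhere (difference -1.49, adjusted p = 4.43e-08). Ccs, the copper chaperone of superoxide dismutase, fell 5.0-fold, from 8.18, 7.91 and 8.15 to 5.49, 5.72 and 6.07 (difference -1.51, adjusted p = 3.59e-07). Its T1 mean of 5.76 was within the 5.75 to 6.01 of the other strains, so the gap was at T0. For Samhd1 (difference -1.29) the gap was larger at T1, with 8.68, 8.86 and 8.88 in DBA/2J against strain means of 9.46 to 10.01.

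**Figure D4:**
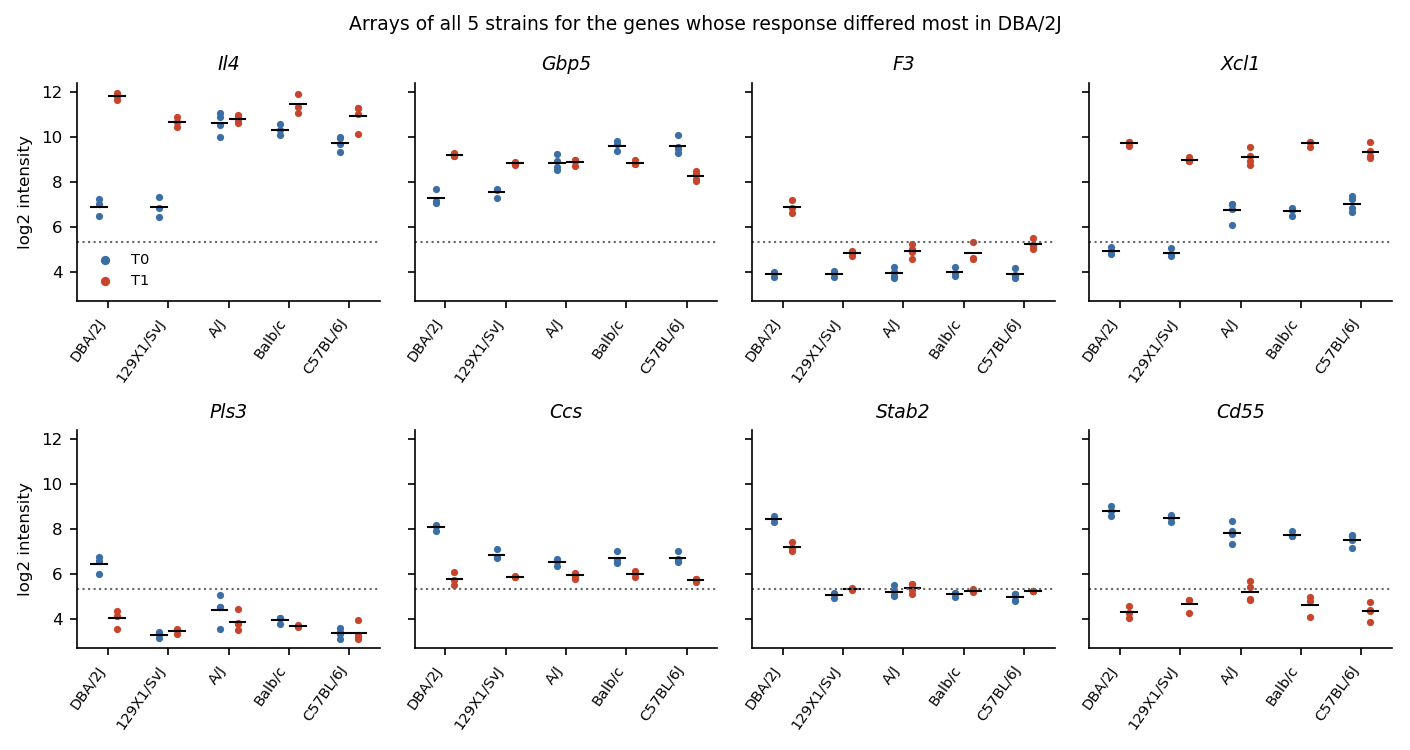
Log2 intensity on every array of the 5 strains at T0 (blue) and T1 (red) for the named genes with, in deposited values, the 4 largest positive (top) and 4 most negative (bottom) differences, unnamed transcripts passed over. A black bar marks each group mean and the dotted line the median of all values. For Il4 the T0 means of DBA/2J (6.89) and 129X1/SvJ (6.85) are low, and for F3 the T1 mean of DBA/2J (6.88) stands above those of the other strains.

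Cd55 fell in every strain, with deposited values changing by -4.50 in DBA/2J against a mean of -3.18 (difference -1.32, adjusted p = 0.00518). Its T1 means were under the limit in all strains, so the depth of the falls and their order are not measured. S1pr1 differed by -1.11, Tmem71 by -1.18, Abca1 by -1.16 and Cd4 by -0.88, each with a deeper fall in DBA/2J. Hvcn1, a proton channel of B cells and phagocytes, differed by -1.29, and Rcsd1, a regulator of actin capping, by -1.21. The calls of 3 further genes rested on single arrays of DBA/2J. Vipr1, the receptor for vasoactive intestinal peptide, differed by -1.29, lost without T0 replicate 2 or T1 replicate 2 (adjusted p up to 0.0954), and its second probe set differed by -0.30 (adjusted p = 0.724). Rasgrp3 differed by -1.20, lost without T0 replicate 3, T0 replicate 4, T1 replicate 2 or T1 replicate 4 (adjusted p up to 0.0907), and Arhgef18 by -1.17, lost without T0 replicate 2 (adjusted p = 0.0557).

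Of the 272 genes, 14 moved in opposite directions with both the DBA/2J response and the mean of the others called. Stab2 was among them with means of the other strains under the limit in all 4 at T0 and in 3 at T1, so their rise of 0.22 is not shown to lie above background. Apart from Gbp3 and Gbp5, the rest included Id3, an inhibitor of E protein transcription factors, at -0.53 against 0.59, and Itgae, the integrin chain CD103, at 0.70 against -0.24. Mrps5, a protein of the mitochondrial ribosome, read 8.4, 8.06 and 8.06 at T0 and 7.6, 7.45 and 6.96 at T1, a change of -0.84 against 0.30 (difference -1.14, adjusted p = 0.000526). Its groups did not overlap, and its second probe set differed by -0.96. The others were Acap1, Alkbh2, Emd, Hpcal1, Naa16, Pepd, Wdr59 and G530011O06Rik.

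By pathway, the responses of DBA/2J above those of the others included 5 of 26 cytokine genes, against 0.876% of all genes. These were Il2 (1.00), Ifng (1.19), Csf2, Il4 and Il13 (0.87). DBA/2J minus the mean of the others was -1.14 at T0 and -0.14 at T1 for Il2, and -1.10 and 0.09 for Ifng. For Il13 it was -0.60 and 0.26, and for Csf2 -0.05 and 1.35. The DBA/2J T0 means of Il2, Ifng, Csf2 and Il13 were under the limit, so these sizes are not measured. The call for Il2 was lost without T0 replicate 3, T0 replicate 4, T1 replicate 2 or T1 replicate 4 (adjusted p up to 0.112), and that for Il13 without any of the DBA/2J arrays (up to 0.149). Ifng kept its call without any single array. The immediate early genes above were Nr4a3 (1.11), Nr4a1 (0.94), Nr4a2 (0.90) and Egr2 (0.75), of which Egr2 lost the call without T0 replicate 4 (adjusted p = 0.0951) and Nr4a2 without any DBA/2J array but T0 replicate 3 (up to 0.143). Their gaps to the mean of the others lay between -1.24 and -0.81 at T0 and between -0.23 and -0.06 at T1. Signalling brakes above the others were Cish, Rgs16 (1.12, adjusted p = 8.16e-06), Socs1 (0.96) and Socs3 (0.82), and Dgka lay below (-0.68). Socs1 lost the call without T0 or T1 replicate 4 (adjusted p up to 0.0982), Socs3 without T0 replicate 4 or T1 replicate 3 (up to 0.0822), and Dgka without any DBA/2J array but T1 replicate 4 (up to 0.138). The second probe set of Socs3 differed by 0.21 and was not called. Activation receptors above were Il2ra (1.16), Cd274 (1.10), Cd69 (0.79) and Slamf1 (0.68), and Il18r1 lay below (-0.51). Cd69 lost the call without T0 replicate 2 or any T1 array (adjusted p up to 0.257), and Il18r1 without any DBA/2J array but T1 replicate 3 and without many arrays of other strains (up to 0.181). Of the 18 B cell markers kept, 4 were below the others, against 1.51% of all genes. They were Fcrla (-1.03), Fcmr (-1.01), Ly6d (-0.99) and Btk (-0.84). In this order, DBA/2J minus the mean of the others was 0.79, 1.05, 1.95 and 0.70 at T0. At T1 it was -0.24, 0.04, 0.96 and -0.14, with the DBA/2J means of Fcrla and Btk under the limit. Siglech, a marker of plasmacytoid dendritic cells, differed by -0.89. Fcrla kept its call without any single array, Fcmr lost it without T0 replicate 3 or T1 replicate 4 (adjusted p up to 0.116), Siglech without T0 replicate 2 or T1 replicate 4 (up to 0.136), and Ly6d and Btk without most DBA/2J arrays (up to 0.15 and 0.181). The ribosome biogenesis (28 genes kept), glycolysis (16), chaperone (16), MHC (16) and mRNA decay (13) lists held no gene called different. The same was true of the neutrophil, CD8 T and NK, erythroid and platelet markers. Over all genes 2.38% were called, and in lists this small no call is near that share. Mir155 (0.69) lay above and Mir15b (-0.72) below, the first lost without T0 replicate 2 (adjusted p = 0.0633) and the second without any DBA/2J array but T0 replicate 3 (up to 0.192).

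For 65 of the 100 genes above the others the gap between DBA/2J and the mean of the other strains was larger at T0 than at T1, and for 35 it was larger at T1. For the 172 genes below, the gap was larger at T0 for 67 and at T1 for 105. For Il2ra, DBA/2J minus the mean of the others was -0.85 at T0 and 0.31 at T1. For Nr4a1 it was -1.12 at T0 and -0.18 at T1. These gaps compare strains on the same probe sets and are descriptions, and a gap with means under the limit is not measured in size.

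**Figure D5:**
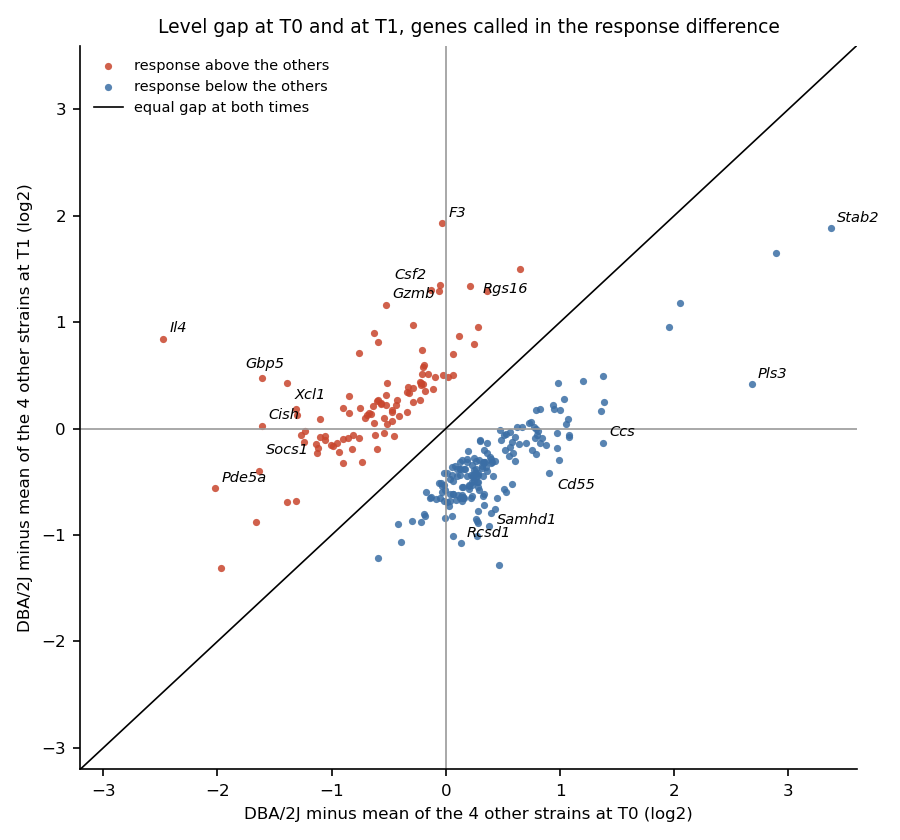
DBA/2J minus the mean of the 4 other strains at T0 (horizontal axis, log2) and at T1 (vertical axis, log2) for the 272 genes called in the difference of responses, red above and blue below the others, with a line of equal gaps. Il4 lies far left, at a T0 gap of -2.48 and a T1 gap of 0.85, F3 lies at a T0 gap of -0.03 and a T1 gap of 1.93, and Stab2 lies far right.

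Against single strains, the DBA/2J response was called different for 524 genes (4.59%) with C57BL/6J, 392 (3.43%) with A/J, 247 (2.16%) with Balb/c and 41 (0.359%) with 129X1/SvJ. These comparisons share the DBA/2J arrays. Across genes the correlation of responses was 0.955 with 129X1/SvJ, 0.929 with A/J and with Balb/c, and 0.916 with C57BL/6J. Of the 272 genes that differed from the mean of the others, 28 were also called against 129X1/SvJ alone. Of the genes described here these included F3, Stab2, Pls3, Ccs, Samhd1, Rcsd1, Pde5a, Rgs16, Gbp9 and Ccl1. Il3 was called against 129X1/SvJ alone, at 5.72 against 3.94 (adjusted p = 0.00873), but not against the mean of the others (adjusted p = 0.144). Il2, Ifng, Il4, Gbp5, Cish and Xcl1 were not called different from 129X1/SvJ.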

How the data were processed

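CD4+ spleen cells of 5 mouse strains were measured on 34 Affymetrix arrays, unstimulated and after PMA with ionomycin. The deposited values were log2 intensities that the authors made with RMA, per the submitters' processing notes, whose version and probe set definitions are not stated there. RMA draws arrays to a common distribution, so a change shared by all genes is not measured. Of 35556 probe sets, 21789 carried 1 gene symbol, 1621 several and 12146 none, and only the first were used, with the probe set of highest mean per gene (19938 genes, of which 999 had more than 1). Genes whose highest group mean was under the median of all values, 5.327, were left out. A linear model with 10 groups over all arrays (limma 3.58.1, R 4.3.3, 24 residual degrees of freedom) gave the DBA/2J response and its difference from the mean response of the other strains. P-values were Benjamini-Hochberg adjusted over 11413 genes and called under 0.05. The model was tested on simulated data. Members and lists were chosen with earlier results of these data known.

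Genes were named as the 15 largest rises and 15 largest falls, the 12 largest differences in each direction, up to 4 members per list by moderated t, members against their list's direction, members called different from the other strains, and 10 fixed genes, passing over unnamed transcripts. The 10 were Il2, Ifng, Tnf, Il4, Cd69, Cd4, Fos, Egr1, Myc and Il2ra. The rises and falls were taken among called genes with the same sign in every difference between arrays of the same number. The largest differences were taken among genes called in the comparison with the other strains. Genes named outside this rule, such as further list members, the microRNAs, the Gbp family and Mrps5, were chosen after their values were seen. The number of arrays limits the precision. Alternatives were the filter, normalization, probe set summary, variance prior, a replicate block, the 6 arrays alone, single strains and leaving out each array.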

Additional observations from a re-analysis of the deposited data

Results flagged for a closer look

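The response of DBA/2J differed from the mean response of the other 4 strains by the interaction test (limma, Benjamini-Hochberg adjusted p under 0.05) for 71 genes named here, 41 with a positive and 30 with a negative difference. Of all 272 genes called, 55 had at least 1 group mean under the limit, so their size and order are not measured. Those listed here include Il2, Ifng, Csf2, Gzmb, Xcl1, Ccl1, Il13, F3, Pde5a, Pls3, Stab2 and Cd55. Among the positive differences, the DBA/2J response minus the mean response of the other strains (log2) was Il4 (3.32), Gbp5 (2.08), F3 (1.96), Xcl1 (1.83), Gzmb (1.69), Cish (1.64), Gbp11 (1.53), Gbp4 (1.49), Gbp9 (1.47), Pde5a (1.46) and Iigp1 (1.43). The next values in size were Ccl1 (1.43), Csf2 (1.40), Ifng (1.19), Il2ra (1.16), Rgs16 (1.12), Nr4a3 (1.11), Cd274 (1.10), Il2 (1.00), Socs1 (0.96), Nr4a1 (0.94) and Itgae (0.94). Smaller differences above the others were Nr4a2 (0.90), Il13 (0.87), Gadd45b (0.85), Socs3 (0.82), Cd247 (0.82), Stat5a (0.81), Cd69 (0.79), Egr2 (0.75), Gbp3 (0.72), Wars (0.70) and Mir155 (0.69). The smallest were Slamf1 (0.68), Ccnd2 (0.67), Irf4 (0.66), Ccr4 (0.66), Slamf7 (0.66), Gata3 (0.53), Prps1 (0.50) and Nfkbia (0.41). Among the negative differences, the same quantity was Pls3 (-2.26), Ccs (-1.51), Stab2 (-1.49), Cd55 (-1.32), Hvcn1 (-1.29), Vipr1 (-1.29), Samhd1 (-1.29), Rcsd1 (-1.21), Rasgrp3 (-1.20) and Tmem71 (-1.18). Further values below the others were Arhgef18 (-1.17), Abca1 (-1.16), Mrps5 (-1.14), Id3 (-1.12), S1pr1 (-1.11), Fcrla (-1.03), Fcmr (-1.01), Ly6d (-0.99), Siglech (-0.89) and St8sia1 (-0.88). The smallest in size were Cd4 (-0.88), Itgb7 (-0.86), Btk (-0.84), Il7r (-0.74), Mir15b (-0.72), Orai2 (-0.70), Dgka (-0.68), Cxcr4 (-0.57), Klf3 (-0.56) and Il18r1 (-0.51). Of the 71 genes, 36 kept the call on leaving out each array in turn and 35 lost it at least once, 25 of them only when a DBA/2J array was left out. The array whose removal ended most calls was T0 replicate 4 of DBA/2J, with 27, and the least among the 6 DBA/2J arrays was T0 replicate 3, with 14. Groups of 3 arrays were not tested for outlying samples.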

How the results depend on the processing

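The count of genes changed by stimulation in DBA/2J, 6848, lay between 6151 and 7029 on leaving out each array in turn. It was 7474 without the filter on low values, 6450 with a filter on the mean over all arrays, 7017 after a further quantile normalization, 6745 after median centring, 6832 with the mean of all probe sets, 6809 with an intensity trend and 7281 with only the 6 DBA/2J arrays. Of 236 named genes called in the response, 12 lost the call without at least 1 array. The count of genes whose response differed from the other strains, 272, was less stable. Leaving out each array in turn gave 147 to 596 genes in all, 59 to 182 above the others and 84 to 414 below. It was 207 without the filter and 352 after a further quantile normalization. Against single strains, an alternative chosen after seeing the data, it was 524 for C57BL/6J and 41 for 129X1/SvJ. No result reversed under the alternatives run. The cause of these shifts was not tested. With 3 arrays per time in DBA/2J, small differences are poorly resolved, and low intensities compress them.

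With strain and number as a replicate block, 428 genes differed from the other strains, 158 above and 270 below, and 7302 were called in the response. Deviations of DBA/2J arrays of the same number correlated at 0.03, 0.26 and 0.06 for replicates 2, 3 and 4. Between T0 and T1 arrays of different numbers in DBA/2J the correlations ran from -0.15 to 0.08. Whether arrays of the same number came from the same mice was not tested. In the other strains, correlations of arrays of the same number ran from 0.41 to 0.47 in 129X1/SvJ and 0.28 to 0.46 in C57BL/6J. They ran from 0.18 to 0.34 in Balb/c and -0.08 to 0.26 in A/J. Of the 272 genes, 260 were also called under the block.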
